A study of Mus musculus with 12 samples.

Results

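Expression of 9 homeobox genes was examined in sorted mouse bone marrow progenitors: Hoxa3, Hoxa5, Hoxa7, Hoxa9, Hoxa10, Hoxb3, Hoxb4, Meis1 and Pbx3. They were taken by name, with earlier results of these data known, and all 9 were among the 23383 genes joined across the libraries. The mice were C57BL/6 and carried either both wild-type alleles (WT) of an enhancer located 42 kb from Cebpa or none (Cebpa +42kb enhancer -/-, here "null"). From each genotype the labels give common myeloid progenitors (CMP) and LSK cells, the fraction with Sca-1 and Kit but no lineage markers, which holds the stem cells. Each of the 4 groups had 3 libraries, numbered 1, 6 and 8 in the WT groups and 1, 2 and 7 in the null groups. Age and sex are not given in the labels, nor is it stated whether the enhancer was removed in the germ line or in blood cells alone. By counts of Xist and Y-linked genes, null libraries 1 and 2 and WT library 1 read as male in both cell types. Null library 7 and WT libraries 6 and 8 read as female, so sex was not balanced between the genotypes.

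Hox genes encode transcription factors that lie in chromosomal clusters and bind DNA through a homeodomain. Alone they recognise short, similar sequences, and they gain selectivity by binding beside partners of the TALE class, among them the Pbx and Meis proteins. In blood formation, Hox genes of the A and B clusters are most active in stem and early progenitor cells and are shut down as cells mature. Hoxa9 and Meis1 together are a classical driver pair of acute myeloid leukaemia, and C/EBPα, the product of Cebpa, is the transcription factor that starts granulocyte and monocyte commitment.

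The members lie at 4 places in the mm10 genome. The 5 Hoxa genes are neighbours on the minus strand of chromosome 6, with Hoxa3 at chr6:52169062-52213336, Hoxa5 at chr6:52201754-52204587 and Hoxa7 at chr6:52214491-52221854. Hoxa9 follows at chr6:52223100-52231089 and Hoxa10 at chr6:52231197-52240854. Hoxb4 (chr11:96318267-96321638) and Hoxb3 (chr11:96323326-96347930) lie side by side on the plus strand of chromosome 11. Meis1 lies elsewhere on that chromosome (chr11:18879817-19018985), and Pbx3 lies at chr2:34171457-34373142, both on the minus strand. Counts cover all exons of a gene. Antisense genes overlap 20.4% of the exon bases of Hoxa7 (Hoxaas3) and 52.9% of those of Hoxb3 (Hoxb3os). Annotated genes on either strand overlap 27.1% of Hoxa3 (mostly antisense) and 18.3% of Meis1. Hoxaas3 has its own entry in the joined counts, while Hoxb3os has none. The strand setting of the counting is not given in the sources used here, so it is not known how reads in these overlaps were assigned.

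The stretches upstream of the start sites of Hoxa9, Meis1 and Hoxa5 are printed because these 3 genes carry the results below. They are RefSeq sequences of GRCm38.p6, on the minus strand and 5′ to 3′, with capitals marking the CCAAT box read on either strand. They span chr6:52227371-52227620 for Hoxa9, chr11:19018986-19019219 for Meis1 and chr6:52204588-52204837 for Hoxa5. The Hoxa9 stretch lies inside the annotated gene but outside its exons, because GENCODE also lists a longer transcript. The Meis1 stretch stops 16 bases before the RefSeq start, because those bases lie in an annotated exon.
Hoxa9: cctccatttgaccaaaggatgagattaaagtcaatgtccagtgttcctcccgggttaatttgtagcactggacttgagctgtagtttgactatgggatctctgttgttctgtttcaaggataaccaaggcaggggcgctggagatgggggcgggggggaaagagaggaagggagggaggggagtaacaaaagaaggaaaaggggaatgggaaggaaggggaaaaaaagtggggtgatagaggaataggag
Meis1: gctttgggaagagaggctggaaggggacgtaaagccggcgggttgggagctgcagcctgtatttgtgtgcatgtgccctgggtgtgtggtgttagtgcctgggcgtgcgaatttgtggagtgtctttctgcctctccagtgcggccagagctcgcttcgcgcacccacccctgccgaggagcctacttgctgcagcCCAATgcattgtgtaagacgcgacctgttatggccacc
Hoxa5: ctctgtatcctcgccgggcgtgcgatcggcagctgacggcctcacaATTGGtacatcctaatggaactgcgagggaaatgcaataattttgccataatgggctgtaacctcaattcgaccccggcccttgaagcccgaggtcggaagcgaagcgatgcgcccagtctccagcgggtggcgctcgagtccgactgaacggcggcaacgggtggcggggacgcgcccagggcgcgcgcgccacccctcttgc
The stretches differ in CpG content. Over the whole window of 250 bases before the RefSeq start, Hoxa9 had 3 CpG pairs, Meis1 13 and Hoxa5 28, against a median of 6 over all promoters in the table. CCAAT was found in the Meis1 and Hoxa5 windows and in 33.8% of 32851 promoter windows of that length. The other motifs searched on both strands, TGATTNAT for Hox with Pbx, TGACAG for Meis and TTGCNNAA for C/EBP, were not found in these 3 windows. They occurred in 2.82%, 15.9% and 9.56% of all windows. No binding or methylation was measured here.

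Levels are given as CPM, that is, read counts relative to the library's total, scaled between libraries. Gene counts per library ran from 6170491 to 49149674, so that 3 counts, the limit that a count of 0 allows, corresponded to 0.0612 to 0.487 CPM. Cebpa itself was at 17.3, 15 and 30 CPM in WT CMP and at 0, 0.147 and 0 CPM in null CMP. It was at 6.51, 8.24 and 2.46 CPM in WT LSK and at 0.0768, 0 and 0.302 CPM in null LSK. Ly6a, which encodes Sca-1, was at 134 to 198 CPM in the 6 LSK libraries and reached 12.8 CPM at most in the 6 CMP libraries. Among 8 LSK and stem cell markers, the summed level was 1714 to 1840 CPM in WT LSK, 1002 to 1103 in null LSK, 291 to 467 in WT CMP and 503 to 716 in null CMP. The higher sum in null CMP came from Kit (579 ± 119 CPM against 343 ± 82.9), while Hlf (2.77 against 12.5), Mecom (0.0750 against 2.66), Fgd5 (0.0385 against 1.06) and Procr (0.365 against 0.673) had lower means there than in WT CMP. Within that list, the stem cell factor Hlf was at 438 ± 50 CPM (SD, n = 3) in WT LSK and at 63.9 ± 43.3 in null LSK, while Ly6a was at 153 ± 21.4 and 178 ± 30. The null LSK libraries lay below WT for Hlf and overlapped with WT for Ly6a. In bulk samples, fewer cells of a type and less RNA per cell cannot be told apart. The labels do not say whether libraries of a group came from separate mice, and p-values measure only the spread between these libraries.

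**Figure D1:**
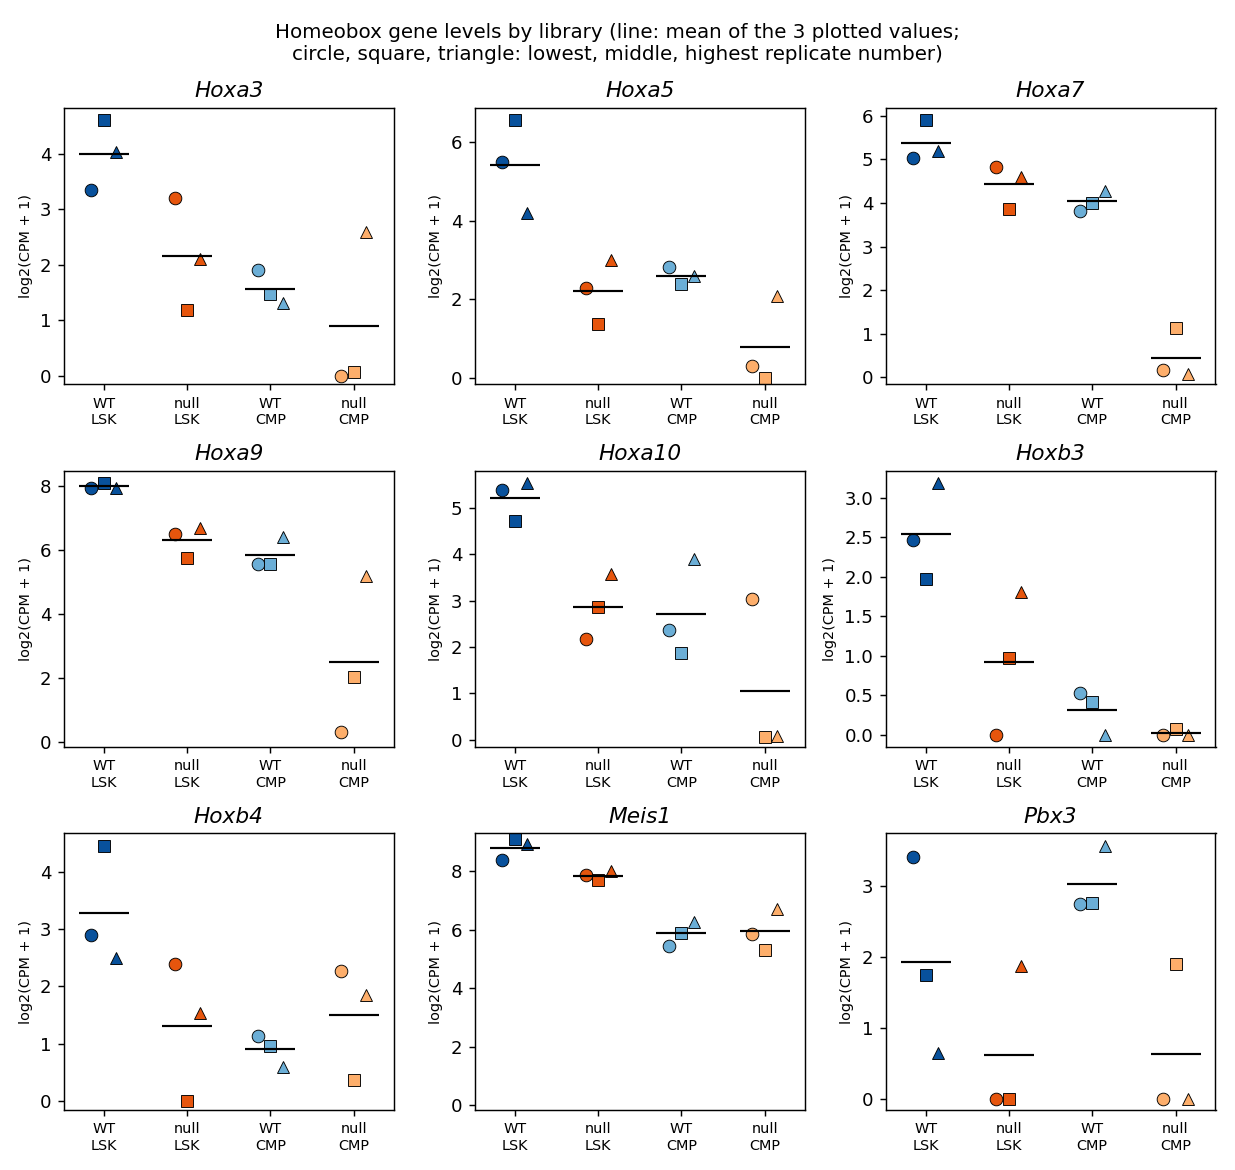
Level of each member in each library, as log2(CPM + 1), in the 4 groups of 3 libraries; points are libraries and lines the mean of the 3 plotted values. Hoxa9 was at 247 to 275 CPM in WT LSK, 52.9 to 104 in null LSK, 46.6 to 84.3 in WT CMP and 0.231 to 35.9 in null CMP.

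The first question was how the members differ between LSK and CMP with the enhancer present. Meis1, Hoxa9 and Hoxa5 were lower in WT CMP than in WT LSK past an adjusted p of 0.05, and no member was higher past it. The threshold was passed by 3 of 9 members on the lower side, against 2.05% of the 12027 genes tested. The median log2 fold change of the 9 was −2.89, against −0.01 over all genes tested. At an unadjusted p under 0.05, 8 of 9 were lower (10.1% of all genes), and DESeq2 called 8 lower (7.33%). Libraries did not overlap, CMP being lower, for 8 of 9 members and for 17.4% of all genes. Pbx3 was the exception. As the members were chosen with earlier results of these data known, the shares here and below describe them and do not test the set. The summed level of 6 erythroid markers was 368 to 443 CPM in WT CMP and 1.12 to 57.0 in WT LSK, and that of 6 monocyte markers was 829 to 928 and 141 to 279. Myeloid progenitor markers (5782 to 7089 against 2336 to 2663), mast cell and basophil markers (42.7 to 238 against 6.43 to 13.2) and megakaryocyte markers (60.4 to 86.1 against 46.6 to 57.2) were also higher in WT CMP. Within these lists, Itga2b (25.8 against 31.8 CPM), Ppbp, Kit (343 against 792), Cd34, Fcgr3, Fcer1a, Lyz2 and Adgre1 had lower means in WT CMP. The megakaryocyte rise was mostly Pf4 (39.7 against 9.26 CPM). The part of all these markers in the members' lower levels was not tested.

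Meis1, the TALE partner that joins Hox and Pbx on DNA, was at 332, 548 and 492 CPM in WT LSK libraries 1, 6 and 8 and at 42.8, 59.0 and 76.5 CPM in WT CMP. Every LSK library lay far above every CMP library. Meis1 fell by 2.89 on the log2 scale (SE 0.30, adjusted p = 0.00648, edgeR). The adjusted p of Meis1 was 8.38e-20 to 0.0402 over all 12 alternative settings.

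Hoxa9, the Hox gene most closely tied to myeloid progenitor growth, was at 247, 275 and 248 CPM in WT LSK. In WT CMP it was at 46.6, 46.6 and 84.3 CPM. The LSK libraries were close together, and the nearest CMP library lay well below them. Hoxa9 fell by 2.06 (SE 0.28, adjusted p = 0.0135, edgeR). Without WT CMP replicate 1 or replicate 6 the adjusted p was 0.0557 or 0.0669, within a range of 1.21e-09 to 0.302 over 12 settings.

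Hoxa5 was at 44.2, 92.9 and 17.4 CPM in WT LSK and at 6.03, 4.29 and 5.05 CPM in WT CMP. The LSK libraries were spread widely but none reached down to the CMP libraries. Hoxa5, a factor with roles in myeloid and erythroid choice, fell by 3.28 (SE 0.67, adjusted p = 0.0421, edgeR). This call is the least firm of the 3, as it passed in 5 of 12 alternative settings (adjusted p 2.88e-05 to 0.249). With sex as a covariate it was 0.0857. Leaving out WT LSK replicate 1 gave 0.0984, and leaving out any one WT CMP library gave 0.140, 0.162 or 0.152.

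The other Hox members had separate LSK and CMP libraries but did not pass the threshold. Hoxa7 was at 31.5, 58.6 and 35.4 CPM in WT LSK and at 13.1, 15.1 and 18.4 in WT CMP (log2 fold change −1.38, SE 0.43, adjusted p = 0.122, edgeR). Hoxa10, whose forced expression disturbs myeloid and megakaryocyte maturation, was at 40.4, 25.3 and 45.1 CPM in LSK and 4.16, 2.67 and 13.8 in CMP (−2.36, SE 0.73, adjusted p = 0.121). Hoxa3 was at 9.19, 23.4 and 15.4 CPM in LSK and 2.76, 1.78 and 1.49 in CMP (−2.94, SE 0.88, adjusted p = 0.111). In each of the 3 the lowest LSK library stayed above the highest CMP library.

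The B cluster members were low throughout. Hoxb4, known for expanding stem cells when overexpressed, was at 6.49, 20.7 and 4.67 CPM in WT LSK and 1.21, 0.947 and 0.518 in WT CMP (log2 fold change −3.52, SE 1.19, adjusted p = 0.146, edgeR). Hoxb3, its neighbour, was at 4.53, 2.93 and 8.08 CPM in LSK and 0.444, 0.334 and 0 in CMP (−4.21, SE 1.72, adjusted p = 0.222). Both were separate between the cell types, at counts as low as 14, 6 and 0 for Hoxb3 in CMP. Pbx3, the Pbx family member that cooperates with Hoxa9 and Meis1 in leukaemia, did not share the pattern. It was at 9.68, 2.37 and 0.568 CPM in LSK and 5.75, 5.80 and 10.9 in CMP, which overlap (0.89, SE 1.23, adjusted p = 0.744).

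The next question was how LSK cells without the enhancer differed from WT LSK. All 9 members had lower mean levels in null than in WT LSK, and a fitted change below 0 was found for 50.7% of all genes. None passed the threshold (0 of 9 tested by edgeR, against 0.0258% of 11619 genes called lower). Of the 9, 4 had an unadjusted p under 0.05 and a lower level, which held for 3.86% of all genes. DESeq2 called 4 of 9 lower, against 1.15% of all genes. The median log2 fold change of the members was −2.13, against −0.01 for all genes, and 8 of 9 had null libraries entirely below the WT libraries (10.4% of all genes). The summed stem cell markers given above were lower in null LSK too, and 6 mast cell and basophil markers summed to 309 to 593 CPM there against 6.43 to 13.2 in WT. Of the latter list, Cpa3 alone made up nearly all (480 ± 154 CPM in null LSK), while Prss34 was at 0.0792 in null and 0.818 in WT. Null LSK also lay above WT for the summed megakaryocyte (127 to 142 against 46.6 to 57.2 CPM), T and NK cell (350 to 397 against 156 to 224) and myeloid progenitor markers (3043 to 4099 against 2336 to 2663), and below it for late neutrophil markers (6.91 to 26.5 against 121 to 1274). The megakaryocyte rise was mostly Itga2b (123 against 31.8 CPM), with Gp9 higher too and Pf4, Gp1bb and Ppbp lower in mean. For T and NK markers it was mostly Nkg7 (278 against 120) and Lck (93.8 against 57.8). Klrb1c was higher too, and Cd3e, Cd3g and Cd3d were lower. The myeloid progenitor rise was mostly Mpo (1767 against 365), with Fcgr2b and Ctsg higher too and Kit, Cd34, Fcgr3, Elane and Prtn3 lower. The part of all these markers in the difference was not tested.

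Hoxa9 had 3.12 times the mean level in WT as in null LSK. The null LSK libraries 1, 2 and 7 were at 89.6, 52.9 and 104 CPM (82.2 ± 26.4), and the WT libraries at 257 ± 16.1 (SD, n = 3). The highest null library lay far below the lowest WT library. The log2 fold change was −1.62 (SE 0.26, unadjusted p = 0.000357, adjusted p = 0.113, edgeR). DESeq2 gave an adjusted p of 4.57e-06 and the fit without a filter on low counts 0.0437, within a range that reached 0.740 over 11 settings.

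Meis1 was at 232, 206 and 254 CPM in null LSK against 332, 548 and 492 CPM in WT LSK. The groups did not overlap, with WT library 1 the nearest to the null libraries. The log2 fold change was −0.96 (SE 0.21, unadjusted p = 0.00196, adjusted p = 0.219, edgeR).

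Hoxa5 was at 3.92, 1.61 and 6.95 CPM in null LSK, all under the 17.4 CPM of the lowest WT library. Its log2 fold change was −3.59 (SE 0.82, unadjusted p = 0.00289, adjusted p = 0.262, edgeR). Hoxa10 was at 3.53, 6.27 and 10.8 CPM, all under the 25.3 CPM of the lowest WT library. For Hoxa10 it was −2.40 (SE 0.62, unadjusted p = 0.00542, adjusted p = 0.331). Hoxa5 and Hoxa10 thus had the lowest null levels relative to WT among the members with an unadjusted p under 0.05.

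Hoxa7 was at 27.3, 13.5 and 23.3 CPM in null LSK, just under the lowest WT library at 31.5 (log2 fold change −0.94, SE 0.46, adjusted p = 0.667, edgeR). Hoxa3 was at 8.22, 1.29 and 3.30 CPM, with the highest null library close to the lowest WT library at 9.19 (−1.88, SE 1.01, adjusted p = 0.694). For both genes the gap to WT was small beside the spread within null LSK.

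Hoxb4 was at 4.22, 0 and 1.91 CPM and Hoxb3 at 0, 0.964 and 2.50 CPM in null LSK, each below its WT libraries. The fitted changes were −2.34 (SE 1.63, adjusted p = 0.772) for Hoxb4 and −2.13 (SE 1.79, adjusted p = 0.805) for Hoxb3, by edgeR. Pbx3 was at 0, 0 and 2.68 CPM, and its null library 7 lay above 2 of the 3 WT libraries (−2.17, SE 2.23, adjusted p = 0.854).

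**Figure D2:**
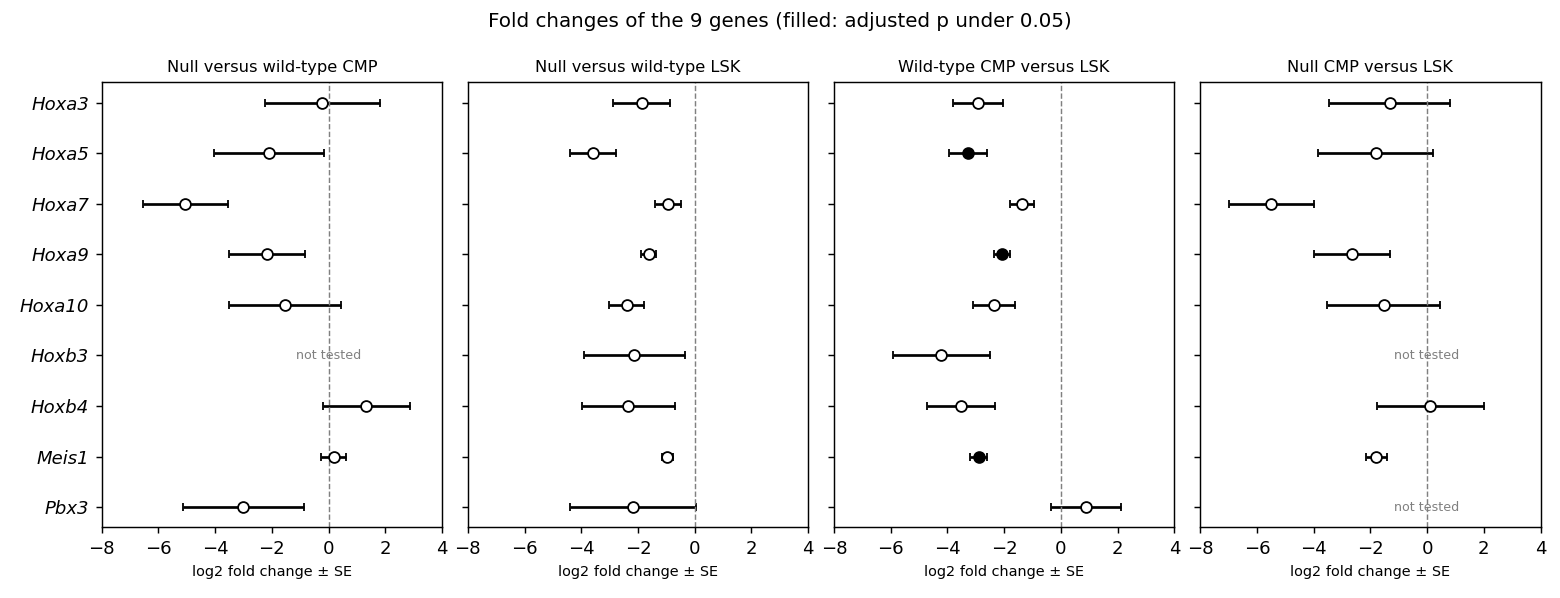
Log2 fold change of each member in the 2 genotype and 2 cell type comparisons, with bars of 1 SE from the edgeR fit and filled points for an adjusted p under 0.05. The 3 filled points are Meis1, Hoxa9 and Hoxa5 between WT CMP and WT LSK.

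In CMP without the enhancer most Hoxa members had low and uneven levels, while Meis1 overlapped with WT. None of the 8 members tested passed the threshold by edgeR, against 0.111% of 11722 genes called lower. At an unadjusted p under 0.05, 1 member was lower (5.07% of all genes), and DESeq2 called 1 lower (1.91%). That member was Hoxa7 in both. The null libraries lay entirely below WT for Hoxa5, Hoxa7, Hoxa9 and Pbx3, which is 4 of 8 tested (12.9% of all genes), and above it for none. The median log2 fold change of the 8 was −1.81, against −0.02 for all genes. The summed level of the 6 monocyte markers was 27.9 to 72.1 CPM in null CMP against 829 to 928 in WT CMP, with Adgre1 and C1qa at 0 in all null libraries. Late neutrophil (3.69 to 25.4 against 25.9 to 1986 CPM) and myeloid progenitor markers (3335 to 4455 against 5782 to 7089) were lower in null CMP too. T and NK cell (248 to 478 against 72.8 to 161) and megakaryocyte markers (106 to 237 against 60.4 to 86.1) were higher. The first rise was mostly Nkg7 (260 against 84.9) and Lck (90.2 against 20.8), and Cd3e and Klrb1c had lower means in null CMP. The second was mostly Itga2b (149 against 25.8), and Pf4 was lower (9.23 against 39.7). Of the myeloid progenitor list, Kit and Fcgr3 went the other way, with higher means in null CMP. The part of all these markers in the members' levels was not tested.

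Hoxa7 was at 13.1, 15.1 and 18.4 CPM in WT CMP and at 0.115, 1.17 and 0.0608 CPM in null CMP. The null values rest on 1, 24 and 1 counts, and all 3 were far below WT. The log2 fold change was −5.05 (SE 1.5, unadjusted p = 0.0107, adjusted p = 0.233, edgeR). DESeq2 gave an adjusted p of 0.00198 and the fit of all 12 libraries 0.0245, within a range up to 0.611 over 11 settings. The antisense gene Hoxaas3 has its own entry in the joined counts, and how reads in its overlap with Hoxa7 were assigned is not known.

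Hoxa9 in null CMP differed widely between libraries. Its level was 0.231 CPM in library 1, 3.09 in library 2 and 35.9 in library 7, from 2, 63 and 591 counts. All 3 were below the lowest WT CMP library at 46.6 CPM, library 7 by little. The log2 fold change was −2.16 (SE 1.34, adjusted p = 0.600, edgeR), and it reached −5.09 without null library 7.

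Hoxa5 was at 0.231, 0 and 3.28 CPM in null CMP, below the 4.29 CPM of the lowest WT library (log2 fold change −2.10, SE 1.94, adjusted p = 0.764, edgeR). Pbx3 was at 0, 2.74 and 0 CPM in null CMP, below the 5.75 CPM of the lowest WT library (−3.00, SE 2.13, adjusted p = 0.669). In both genes a single null library held nearly all the counts.

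Hoxa10 was at 7.15, 0.0490 and 0.0608 CPM in null CMP, from 62, 1 and 1 counts, and library 1 lay inside the WT range (log2 fold change −1.52, SE 1.98, adjusted p = 0.843, edgeR). Hoxa3 was at 0, 0.0490 and 5.04 CPM, and library 7 lay above all WT libraries (−0.22, SE 2.04, adjusted p = 0.982). Hoxb4 was at 3.81, 0.294 and 2.61 CPM, 2 libraries above and 1 below WT (1.33, SE 1.53, adjusted p = 0.814). The genotypes overlapped for all 3 genes.

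Hoxb3 was too low to be tested in CMP, with 1 count over the 3 null libraries and 20 over the WT libraries. Meis1 was at 57.1, 38.5 and 104 CPM in null CMP and 42.8, 59.0 and 76.5 CPM in WT CMP. The 2 sets of libraries were interleaved, with a log2 fold change of 0.17 (SE 0.44, adjusted p = 0.927, edgeR). Without null library 7 it was −0.31.

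The uneven null CMP libraries were not carried by one and the same library. Library 7 held 99.0% of the summed level of Hoxa3, 93.4% of Hoxa5 and 91.5% of Hoxa9. Library 1 held 98.5% of Hoxa10, and library 2 held 87.0% of Hoxa7 and 100% of Hoxb3 and Pbx3. Hoxb3 had 1 count in all, which fixes its share. Of the 8 members with more than 3 counts, 5 had at least 90% of their summed level in 1 null CMP library, against 1 of 9 in null LSK and 0 in either WT group. Among tested genes with more than 3 counts in the group, the same held for 12.6% in null CMP, 7.02% in null LSK, 1.73% in WT CMP and 7.35% in WT LSK. For genes with a group mean of 0.4 to 15 CPM, a range chosen after the values were seen, it held for 30.3%, 14.3%, 2.21% and 17.4%. Uneven levels were therefore common among low genes in null CMP. Of all genes averaging 10 CPM or more over the 12 libraries, 3.57%, 0.0544% and 1.55% had no count in null CMP libraries 1, 2 and 7. That share was 1.82% in WT LSK library 6 and reached 0.871% at most in the other libraries. The part of such missing counts in the uneven levels was not tested.

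**Figure D3:**
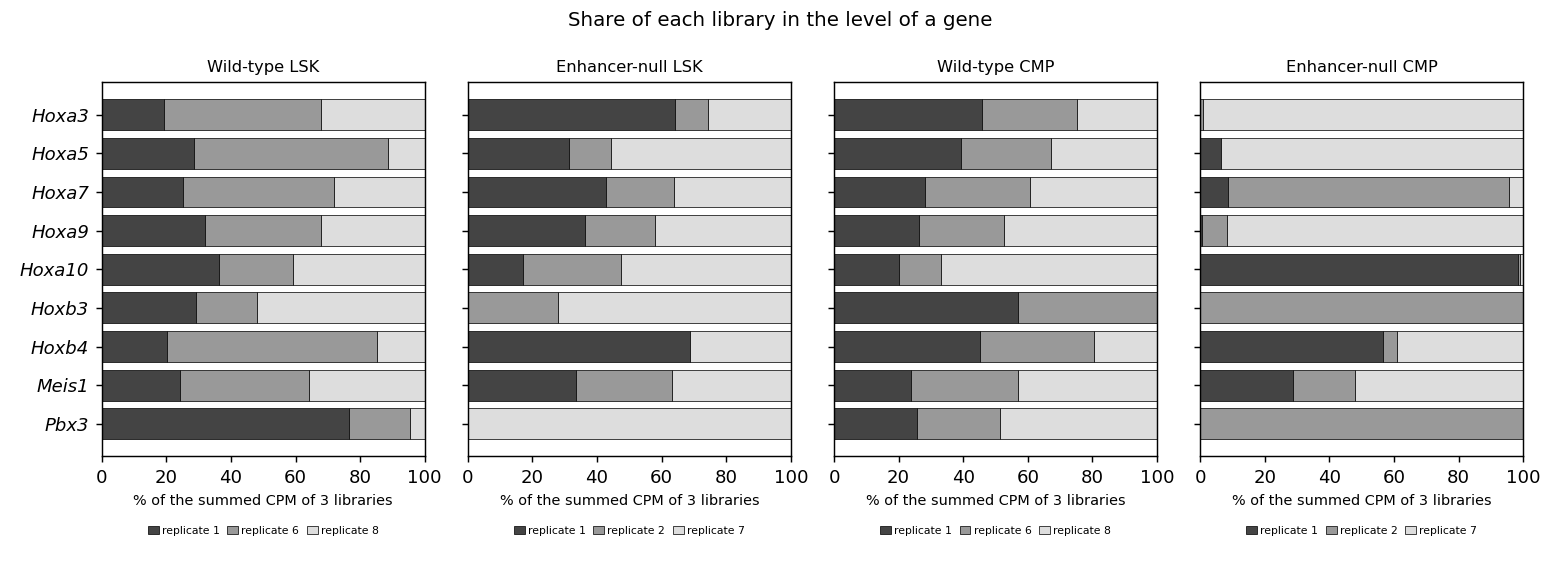
Share of each member's summed CPM that came from each of the 3 libraries, one panel per group, in percent. In null CMP, library 7 made up 91.5% of Hoxa9 and 99.0% of Hoxa3, and library 1 98.5% of Hoxa10.

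Between null CMP and null LSK, no member passed the threshold (0 of 7 tested by edgeR, as for all 11266 genes, 0%). At an unadjusted p under 0.05, 2 members were lower in CMP, Hoxa7 and Meis1 (3.02% of all genes), and DESeq2 called the same 2 (0.897%). Over all genes edgeR had 780 at an unadjusted p under 0.05 and DESeq2 called 205. Libraries were separate, CMP lower, for Hoxa7, Hoxa9 and Meis1, which is 3 of 7 (9.26% of all genes). The summed erythroid markers were higher in null CMP (212 to 510 against 8.52 to 36.1 CPM). So were mast cell and basophil markers (931 to 1343 against 309 to 593). Monocyte markers (27.9 to 72.1 against 122 to 176) and stem cell markers (503 to 716 against 1002 to 1103) were lower. Other marker sums overlapped. Against these directions, Ly86 had a higher mean in null CMP, and Prss34 and Cma1 lower means. The part of all these markers in the members' levels was not tested.

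Hoxa7 had the log2 fold change −5.49 (SE 1.51, adjusted p = 0.457, edgeR), from 13.5 to 27.3 CPM in null LSK and 0.0608 to 1.17 in null CMP. Meis1 had −1.79 (SE 0.37, adjusted p = 0.305), from 206 to 254 CPM in LSK and 38.5 to 104 in CMP. Hoxa9 had −2.64 (SE 1.34, adjusted p = 0.807), from 52.9 to 104 CPM in LSK and 0.231 to 35.9 in CMP. Hoxa5 (−1.81, SE 2.02), Hoxa10 (−1.52, SE 1.99), Hoxa3 (−1.32, SE 2.13) and Hoxb4 (0.11, SE 1.89) overlapped between the cell types. Hoxb3 and Pbx3 were too low to be tested.

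Whether the genotype difference itself differed between CMP and LSK was tested over all 12 libraries. None of the 9 members passed (0 by edgeR, against 0.292% of 12684 genes), and DESeq2 called 1 lower, Hoxa7 (0.552%). At an unadjusted p under 0.05 there were 2, Hoxa7 and Meis1, against 7.64% of all genes. For Hoxa7, null relative to WT was lower in CMP than in LSK by a log2 difference of −4.04 (SE 1.26, unadjusted p = 0.00711, adjusted p = 0.367, edgeR). The adjusted p was 0.0200 without null CMP replicate 2, which held 24 of the 26 null counts, and it ranged from 0.0196 to 0.621 over 17 settings. For Meis1 the difference had the opposite sign, 1.17 (SE 0.48, unadjusted p = 0.0299, adjusted p = 0.579), its null level being lower in LSK and interleaved with WT in CMP. The difference was −0.50 for Hoxa9 (SE 1.31, adjusted p = 0.982) and 3.71 for Hoxb4 (SE 2.27, adjusted p = 0.775). For Hoxa3, Hoxa5, Hoxa10, Hoxb3 and Pbx3 it lay between −1.23 and 1.70 with an SE of 1.83 to 3.08. For these 5 the sign turned when 1 null library was left out, so that the test gives no direction for them.

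The balance of the leukaemia pair Meis1 and Hoxa9 can be read as a ratio within each library. It was chosen after the values were seen and is given without a test. The ratio of Meis1 to Hoxa9 counts was 1.35, 1.99 and 1.98 in WT LSK and 2.58, 3.89 and 2.45 in null LSK. It was 0.918, 1.26 and 0.908 in WT CMP and 12.5 and 2.90 in null CMP libraries 2 and 7. In null CMP library 1 it was 247.5, with a 95% exact binomial interval of 68.2 to 2049, as it rests on 2 Hoxa9 counts. In both cell types every null library had a higher ratio than every WT library. How often other pairs of genes separated in this way was not counted. In CMP the Meis1 levels of the genotypes were interleaved, and it was Hoxa9 that was low and uneven in null.

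**Figure D4:**
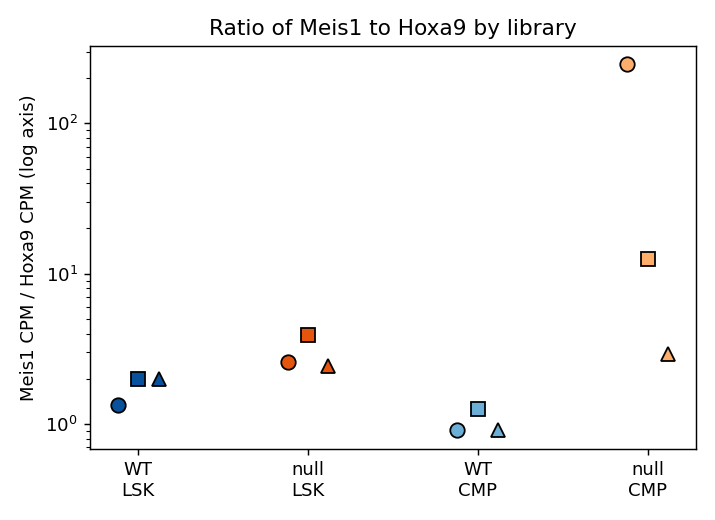
Ratio of Meis1 to Hoxa9 CPM in each of the 12 libraries, on a log axis, by group. The WT CMP libraries lay at 0.908 to 1.26 and the null CMP libraries at 2.90, 12.5 and 247.5.

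To compare levels between members, CPM was divided by exon length. In WT LSK the order in CPM per kb was Hoxa9 at 46.0 ± 2.89, Meis1 at 43.4 ± 10.6 and Hoxa5 at 27.4 ± 20.4, then Hoxa7 at 14.5 ± 5.09 and Hoxa10 at 11.3 ± 3.17 (SD, n = 3). Hoxb4 (4.14 ± 3.43), Hoxa3 (2.66 ± 1.18), Hoxb3 (1.22 ± 0.619) and Pbx3 (0.689 ± 0.790) came last. Each neighbouring pair in this order overlapped between libraries, and so did Hoxa9 with Hoxa5, Hoxa5 with Hoxa10, Hoxb4 with Hoxb3 and Hoxa3 with Pbx3, 2 places apart.

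In null LSK, Meis1 came first at 21.9 CPM per kb and was separate from Hoxa9 at 14.7. Hoxa7 followed at 7.43, separate from Hoxa5 at 2.21 and Hoxa10 at 2.10. In WT CMP, Hoxa9 led at 10.6 and was separate from Meis1 at 5.64, which overlapped with Hoxa7 at 5.40. Thus Hoxa9 was the first of the 9 in WT CMP, while Meis1 was first in null LSK. In null CMP, Meis1 was at 6.32 and Hoxa9 at 2.34, every other member was under 1 CPM per kb, and all neighbours overlapped.

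**Figure D5:**
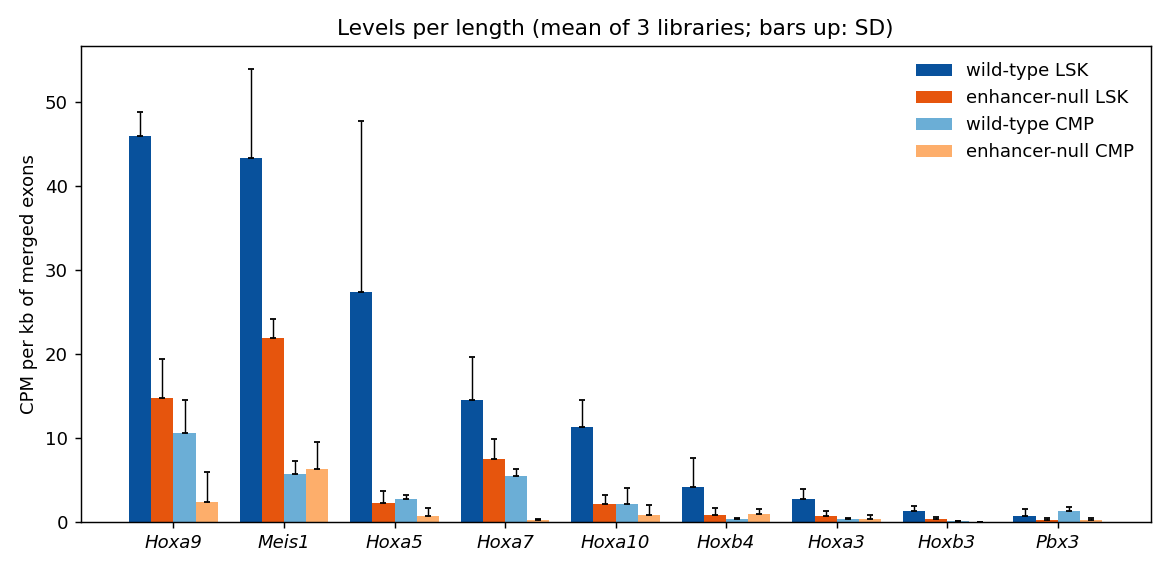
Level of each member per kb of exon in the 4 groups, in CPM per kb. Bars are means of 3 libraries, with the SD drawn upward. Hoxa9 and Meis1 lead in WT LSK at 46.0 and 43.4 CPM per kb, and Hoxa3, Hoxb3 and Pbx3 lie lowest there.

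The other genes of the Hox clusters were mostly at or near 0. Of 32, 6 reached a mean of 1 CPM in any group, all of them in WT LSK. These were Hoxb2 (6.02 ± 5.15), Hoxb7 (5.15 ± 8.60), Hoxa4 (4.81 ± 3.52), Hoxa2 (1.80 ± 1.68), Hoxb5 (1.45 ± 1.26) and Hoxa6 (1.42 ± 0.341), in CPM (SD, n = 3). In LSK, 5 of the 32 were tested for genotype and none passed by edgeR, with a median log2 fold change of −2.52 and Hoxa4 having the smallest p (−4.08, SE 1.87, adjusted p = 0.646). Between WT CMP and LSK 3 were tested and none passed, Hoxb2 coming nearest (−5.57, SE 1.88, adjusted p = 0.148, and 0.00666 by DESeq2, up to 0.399 over 12 settings). In CMP none was high enough to be tested for genotype. Genes this low enter the tests mainly through the group where they are high, which was WT LSK in both comparisons. Hoxa4 had 44, 119 and 77 counts in WT LSK and 1, 0 and 34 in null LSK. The lower signs were thus largely set by the filter and give no direction for these genes.

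Among 10 further TALE cofactor genes, none passed for genotype by edgeR, of 8 tested in CMP and 7 in LSK, and none of 7 passed between the null cell types. For this list the comparison of WT CMP with WT LSK is not reported here. The median log2 fold change was 0.15 for genotype in CMP and −0.05 in LSK. Meis2, a close relative of Meis1, had no count in the 3 null CMP libraries and was at 3.56 ± 3.05 CPM in WT CMP (adjusted p = 0.239 by edgeR, 0.0382 by DESeq2 and up to 0.596 over 11 settings).

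A list of genes tied to Hox expression was next. It was mostly of the Trithorax, Polycomb and MLL fusion partner groups, with others such as Npm1 and Nup98. Of 28 tested in each comparison none passed for genotype, with median log2 fold changes of 0.20 in CMP and 0.10 in LSK. Kmt2a, which encodes the methyltransferase MLL1 that keeps Hox genes active, had the smallest p in CMP. It was at 105 ± 16.9 CPM in WT and 192 ± 49.5 in null CMP (0.87, SE 0.26, adjusted p = 0.229, edgeR). In LSK it was Nup98, a leukaemia fusion partner of Hoxa9, at 68.3 ± 17.7 CPM in WT and 144 ± 62.9 in null (1.10, SE 0.36, adjusted p = 0.492).

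Between WT LSK and WT CMP, 1 of the 28 regulators rose and 2 fell, against 2.15% of all genes called higher and 2.05% called lower. Npm1, whose leukaemic mutants go with high Hox expression, rose from 1899 ± 64.1 to 2986 ± 436 CPM (0.71, SE 0.12, adjusted p = 0.0232, edgeR). Cbx7, a Polycomb subunit of stem cells, was at 41.4 ± 6.76 CPM in LSK and 10.6 ± 1.09 in CMP and fell by 1.91 (SE 0.41, adjusted p = 0.0457). Aff4, a subunit of the super elongation complex, was at 102 ± 7.44 and 49.0 ± 0.752 CPM and fell by 1.0 (SE 0.22, adjusted p = 0.0469). The range over 12 settings was 3.54e-06 to 0.0912 for Npm1, 9.80e-05 to 0.197 for Cbx7 and 0.000541 to 0.212 for Aff4. Leaving out any one WT library other than WT LSK replicate 6 ended each of the 3 calls, as did the replicate block. Sex as a covariate, no filter and the fit of all 12 libraries ended those of Cbx7 and Aff4. Between the null cell types none passed, and Mllt10, an MLL fusion partner, had the smallest p (0.66, adjusted p = 0.619).

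Of a list of genes reported as targets of Hoxa9 and Meis1, 2 of 12 tested rose in null CMP, against 0.478% of all genes, and none fell. Sox4, a stem cell and leukaemia factor that C/EBPα is known to repress, rose from 388 ± 77.5 CPM in WT to 1182 ± 241 in null CMP (1.62, SE 0.21, adjusted p = 0.0244, edgeR). Pim1, a survival kinase, rose from 9.84 ± 1.60 to 57.4 ± 8.96 CPM (2.55, SE 0.41, adjusted p = 0.0492). Over 11 settings the adjusted p reached 0.181 for Sox4 and 0.260 for Pim1. Leaving out null replicate 7 or any WT CMP replicate ended both calls, and leaving out null replicate 2 that of Pim1. Sex as a covariate also ended the call of Pim1 (adjusted p = 0.109, edgeR). In null CMP the summed level of 6 mast cell and basophil markers was 931 to 1343 CPM, against 42.7 to 238 in WT CMP. The mast cell protease gene Cpa3 made up most of it (1103 ± 211 CPM), and Prss34 and Cma1 were at 0 in all 3 null libraries. The part of these markers in the 2 rises was not tested.

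In LSK, 1 of 11 targets tested fell, against 0.0258% of all genes, and none rose. Lmo2, a stem cell adaptor protein, was at 1082 ± 19.3 CPM in WT and 354 ± 58.0 in null LSK and fell by 1.59 (SE 0.13, adjusted p = 0.0128, edgeR). Its adjusted p was 2.95e-26 to 0.145 over 11 settings. Leaving out null replicate 1 or 2, or WT replicate 1 or 8, ended the call, as did sex as a covariate (adjusted p = 0.0545, edgeR). Lmo2 also fell from WT LSK to WT CMP, by 1.43 (SE 0.12, adjusted p = 0.00268), as did Sox4, by 1.22 (SE 0.23, adjusted p = 0.0307). Leaving out WT LSK replicate 1 or any WT CMP replicate ended that call for Sox4 (adjusted p 0.0689 to 0.138). Sex as a covariate ended it too (adjusted p = 0.0577, edgeR). Between the null cell types none of 11 passed. Cd34, the progenitor surface marker, had the smallest p there (−1.30, SE 0.21, adjusted p = 0.189). It passed with DESeq2 (1.69e-06) and in the fit of all 12 libraries (0.0141), within a range up to 0.712.

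In the test of whether genotype acted differently in CMP and LSK, no gene of these 4 lists passed by edgeR. The smallest p belonged to Sox4 among the targets (log2 difference 1.31, adjusted p = 0.114, with a range of 0.00420 to 0.408 over 17 settings and a call by DESeq2 and without a filter) and to Kdm6b, a histone demethylase gene, among the Hox regulators (2.36, adjusted p = 0.389).

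The genes with the most similar profile over the 12 libraries were found by the root mean square (RMS) difference of centred log2(CPM + 1) values among 9186 genes. For Hoxa9 they included Pcp4l1 at an RMS difference of 0.75 and Gm5111 at 0.91, where Hoxa9 itself varied by an RMS of 2.26. Pcp4l1 was at mean levels of 55.2, 15, 9.65 and 2.34 CPM in WT LSK, null LSK, WT CMP and null CMP, the same order of groups as Hoxa9. For Meis1 they were Shisa5 (0.44), Adgrl4 (0.45) and Gimap6 (0.49), against an RMS of 1.31 for Meis1 itself. For Hoxb4 they were Cep19 (0.57), BC026585 (0.59) and Gch1 (0.59), against 1.2. Among the members, Hoxa3 and Meis1 were closest to each other (0.79) and Hoxa9 and Pbx3 farthest apart (2.25).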

How the data were processed

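Total RNA of sorted cells was extracted with a carrier, made into cDNA by a kit for very small inputs and sequenced as read pairs of 75 bp, per the labels' protocols. The authors deposited 1 file per library with raw read counts by gene symbol. TopHat2 2.0.4, Bowtie and HTSeq with mm10 are named in the submitters' processing notes, while annotation and strand setting were not stated. The file of WT CMP replicate 6 lists 23456 symbols and the others 24420. The files were joined on 22779 identical symbols and 604 older names that the RefSeq table links one to one. Entries naming no gene held 37.2% to 46.9% of all counts and were left out.

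Each comparison was fitted over all genes of its libraries with edgeR 4.0.16 in R 4.3.3 (robust quasi-likelihood test, TMM scaling, default filter with a minimum count of 10, Benjamini-Hochberg adjustment at 0.05). The SE is the log2 fold change divided by the root of F. Levels are CPM scaled by TMM over the 12 libraries. Fold changes are null minus WT or CMP minus LSK. Exon lengths and positions came from GENCODE M21, promoters from RefSeq, which matched 7 of 9 members. The script was tested on simulated data. Alternatives were DESeq2 1.42.0, no filter, other size factors, sex as a covariate (read from Xist and Y-linked genes), a fit of all 12 libraries, a replicate block, coding length, a pseudocount of 5 in place of 1 and leaving out each library.

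The members and gene lists were chosen with earlier results of these data known. All 9 members and Cebpa were named. From each list those past the threshold were named, at most 4, or else the gene with the smallest p, with other Hox genes reaching a mean of 1 CPM and the 3 nearest profiles to Hoxa9, Meis1 and Hoxb4. Marker genes, Hoxaas3 and Hoxb3os were named outside this rule. Some genes that the rule took are not reported here. Reads carry no molecular identifiers, so intervals and limits cover counting error only.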

Additional observations from a re-analysis of the deposited data

How the results depend on the processing

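Of 529 fold changes of members under alternatives, 487 kept their direction and side of the threshold, 16 gained a call, 10 lost one and 16 turned sign. The cause was not tested. The counts of members called (0 for CMP genotype, 0 for LSK genotype, 3 between WT cell types, 0 between null cell types, 0 for the interaction) became 1, 4, 8, 2 and 1 with DESeq2. They became 1, 0, 1 and 0 in a fit of all 12 libraries, and without a filter the LSK genotype count was 1. Leaving out 1 library gave 1 to 3 members between WT cell types and 0 to 1 for the interaction.

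Over all genes, the counts 69, 12, 505, 0 and 37 in the same order became 629, 268, 1609, 205 and 186 with DESeq2. Without a filter they became 270, 39, 717, 9 and 68, and with sex as a covariate 31, 3, 285, 0 and 29. The fit of all 12 libraries gave 232, 26, 482 and 37. Leaving out 1 library gave 7 to 92, 1 to 21, 54 to 880, 0 and 12 to 107. The share of higher calls was 81.2% for CMP genotype and 64.4% with DESeq2, 75% and 50% for LSK genotype, and 75.7% and 62.4% for the interaction. Leaving out 1 library gave 57.6% to 92.3%, 66.7% to 100% and 39.3% (without null CMP replicate 2) to 75% for these. Between WT cell types it was 51.1%, and 25.9% (without WT CMP replicate 8) to 57.3%. Without a filter the median over all genes was −0.38 for CMP genotype, 0.26 between WT cell types and −0.25 for the interaction.

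Signs turned for Hoxa3 in CMP (range −5.79 to 0.36, with 0.33 without null CMP replicate 1, 0.36 without replicate 2, 0.04 without WT CMP replicate 1) and for Meis1 in CMP (range −0.31 to 0.45, with −0.31 without null CMP replicate 7, −0.04 without WT CMP replicate 1). Hoxb4 between null cell types ranged from −0.49 to 1.18, at −0.49 without null CMP replicate 1, −0.02 without replicate 7 and −0.43 without null LSK replicate 2. In the interaction, leaving out 1 library gave −3.87 to 2.59 for Hoxa3 and −2.11 to 2.13 for Hoxa5 (lowest without null CMP replicate 7), and −4.48 to 1.80 for Hoxa10 (lowest without null CMP replicate 1). It gave −3.38 to 0.10 for Hoxb3 and −8.13 to 6.20 for Pbx3 (highest without null LSK replicate 7).

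Equal replicate numbers did not deviate together between CMP and LSK over 10182 genes, with Xist and Y-linked genes left out (r −0.041 to 0.060). They did read as the same sex in both cell types. Late neutrophil marker sums ranked the libraries alike in both cell types, and erythroid sums did not. The former were 1986, 232 and 25.9 CPM in WT CMP libraries 1, 6 and 8 and 1274, 255 and 121 in WT LSK. The labels do not say that a number marks a mouse, and these values do not settle it. With the replicate block, calls over all genes numbered 132 between WT cell types, 0 between null cell types and 7 for the interaction. The block left Meis1 and Hoxa9 called between WT cell types but not Hoxa5 (adjusted p = 0.125), and in the interaction it gave −1.06 for Hoxa3, −0.53 for Hoxa5 and −2.27 for Hoxa10. No paired analysis was possible for the genotype comparisons, because a null and a WT library cannot come from the same mouse.

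Per kb of coding sequence, the WT LSK levels were 315.5 for Hoxa9, 290 for Meis1, 63.6 for Hoxa5, 43.0 for Hoxa7, 29.4 for Hoxa10, 14.2 for Hoxb4, 12 for Hoxa3, 3.99 for Hoxb3 and 3.17 for Pbx3, in the same order. With a pseudocount of 5, 2 of the 3 nearest profiles of Hoxa9, 1 of Hoxb4 and 3 of Meis1 were the same genes.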
